A study of Mus musculus with 6 samples.

Results

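The genes described here are the 48 of the 21362 genes in the liver gene table that belong to the mouse major histocompatibility complex (MHC) by name or serve it directly. They were chosen by symbol: every gene whose symbol starts with H2-, the prefix of the mouse MHC, together with B2m, Cd74, Ciita, Tap1, Tap2, Tapbp, Psmb8, Psmb9 and Psmb10. By role they divide into 29 class I genes, 7 genes of class I processing, 9 class II genes and 2 partners of class II (Cd74 and Ciita). The remaining one, H2-Ke6, lies in the region but encodes a hydroxysteroid dehydrogenase and no MHC protein. RNA-seq had been performed on whole livers of 6 Mettl14f/f male mice of C57BL/6J background, in which the Mettl14 alleles are floxed. All 6 were given a high-fat diet (HFD) from 8 weeks of age and received a vector 10 weeks later, and 8 further weeks passed before the liver was collected. In 3 mice the vector was AAV8-TBG-Cre (genotype METTL14 KO in the labels) and in 3 it was AAV8-TBG-GFP (genotype WT in the labels), the control. The thyroxine-binding globulin (TBG) promoter restricts Cre to hepatocytes, so the macrophages, dendritic cells, cholangiocytes and other cells of these livers are not the intended target of recombination.

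Class I molecules are found on nearly all cells. A heavy chain paired with beta-2 microglobulin, the product of B2m, displays peptides from the cytosol to CD8 T cells. The peptides are cut by proteasomes, in which Psmb8, Psmb9 and Psmb10 replace the constitutive catalytic subunits, enter the endoplasmic reticulum through the Tap1 and Tap2 transporter, and are loaded with the help of tapasin, the product of Tapbp. Class II molecules are largely restricted to macrophages, dendritic cells and B cells, and some epithelial cells can acquire them. Their alpha and beta chains assemble on the invariant chain Cd74 and receive peptides of ingested proteins in endosomes, where H2-DM removes the last invariant chain fragment and H2-DO restrains H2-DM. Ciita, the class II transactivator, binds no DNA itself and acts through RFX and NF-Y on the X and Y boxes that class II promoters share. In the liver, Kupffer cells, the resident macrophages, are among the cells that carry class II.

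The promoters of the class II genes are shown first because they hold letters that most of these genes share and most class I genes with a window lack. RefSeq windows on GRCm38.p6, running from 250 bases before a gene's start to 50 bases after it, were matched for 34 of the 48 members. The letters GNAAC, the centre of the X box, were searched on the gene's strand with ATTGG, the centre of the Y box, starting 30 to 36 bases further on. This spacing was set after the members' sequences had been seen. The pair occurred in 6 of the 8 class II genes with a window and in 0.581% of all 32851 windows, or 1.25% when either strand was allowed. Capitals mark the pair in the 80 bases from position -110 to position -31 before the start.
H2-Aa: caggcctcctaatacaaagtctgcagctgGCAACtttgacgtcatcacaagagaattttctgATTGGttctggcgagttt
H2-Eb1: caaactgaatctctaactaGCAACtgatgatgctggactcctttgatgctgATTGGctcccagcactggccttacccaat
H2-DMb1: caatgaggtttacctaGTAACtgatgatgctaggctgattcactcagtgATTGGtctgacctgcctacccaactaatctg
H2-Ob: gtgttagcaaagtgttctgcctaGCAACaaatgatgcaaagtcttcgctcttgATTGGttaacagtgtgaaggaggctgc
H2-Oa: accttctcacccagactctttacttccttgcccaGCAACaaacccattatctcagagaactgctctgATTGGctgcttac

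These windows lie at chr17:34287854-34287933 (minus strand, H2-Aa), chr17:34305757-34305836 (H2-Eb1), chr17:34153081-34153160 (H2-DMb1), chr17:34238795-34238874 (H2-Ob) and chr17:34092269-34092348 (H2-Oa), the last 4 on the plus strand. The distance between the starts of GNAAC and ATTGG was 33 bases in H2-Aa, H2-DMb1 and H2-Oa, 32 in H2-Eb1 and 30 in H2-Ob. The sixth gene with the pair was H2-Eb2, with 32 bases. H2-DMa and H2-DMb2 had a window and no match. Of the 19 class I genes with a window, 1 held the pair (H2-M10.4), and none of the 6 class I processing genes did.

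The class I promoters are shown for contrast. In H2-K1 and H2-D1 the capitals mark GGGATTCCC, an NF-kappaB motif, and ATTGG, here without the letters GNAAC at the class II distance. Other forms of the X box were not searched. H2-Q10, the class I gene with the highest level in these livers, had neither GGGATTCCC nor ATTGG on either strand.
H2-K1: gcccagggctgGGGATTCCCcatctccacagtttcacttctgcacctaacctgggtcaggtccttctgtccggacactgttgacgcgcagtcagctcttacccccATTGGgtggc
H2-D1: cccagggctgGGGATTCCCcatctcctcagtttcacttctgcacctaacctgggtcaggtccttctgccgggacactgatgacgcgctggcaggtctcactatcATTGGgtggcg
H2-Q10: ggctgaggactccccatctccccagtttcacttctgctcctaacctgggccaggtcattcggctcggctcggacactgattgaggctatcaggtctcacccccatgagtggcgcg

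The H2-K1 window lies at chr17:34000354-34000468 on the minus strand and is counted from the more downstream of its 2 starts. The windows of H2-D1 (chr17:35262914-35263028) and H2-Q10 (chr17:35469909-35470023) are on the plus strand. GGGATTCCC occurred on either strand in 4 of the 19 class I genes (H2-D1, H2-K1, H2-Q6 and H2-Q7), in none of the class I processing or class II genes, and in 0.353% of all windows. ATTGG alone is common. It was found on either strand in 37.4% of all windows, in 16 of 19 class I genes and in 8 of 8 class II genes. A match describes letters in a window and is not evidence of binding.

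The 6 libraries held 20356440 to 21010508 expected counts each, fragments assigned to transcripts and summed per gene. Counts of Mettl14, the targeted gene, were 124, 126 and 111 in AAV8-TBG-GFP livers and 104, 131 and 101 in AAV8-TBG-Cre livers, a log2 fold change of -0.29 (SE 0.15, edgeR, adjusted p = 0.337), and these gene counts do not resolve the floxed exons. Class II levels are given below as CPM, counts scaled to library size by the TMM method, and those of the abundant class I and processing genes as FPKM, which is also scaled by transcript length. Members with few or shared fragments are mostly given as counts. Log2 fold changes come from the TMM-scaled counts unless another scale is named, and group differences on the FPKM scale can be smaller, larger or of the other sign. The first principal component (53.6% of the variance) separated the groups, with AAV8-TBG-Cre replicate 2 at 44.05 and the other AAV8-TBG-Cre livers at 7.32 and 20.89. Values without that liver are given beside the class II results, the class II to class I ratio, called genes of the wider pathway and the markers of other cells.

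Of the 48 members, 36 passed the filter on low counts and were tested, 20 of class I, 7 of class I processing, 6 of class II, both partners and H2-Ke6. A gene was called at an unadjusted edgeR p-value under 0.05 with a fold change of at least 1.2, the threshold of the study. By this rule 8 members were higher in AAV8-TBG-Cre livers, where 12.0% of all 13431 genes tested were called higher, and 1 was lower, where 8.41% of all genes were called lower. The called genes were 5 of the 6 tested class II genes, 1 of the 2 class II partners and 3 of the 20 tested class I genes (2 higher, 1 lower). None of the 7 class I processing genes passed. At an adjusted p-value under 0.05, no member was called (lowest adjusted p = 0.0619, 9 members at an unadjusted p under 0.05), while 0.931% of all genes were. DESeq2 called 7 members higher at that threshold, with 4.81% of its genes, and edgeR without AAV8-TBG-Cre replicate 1 called 5 higher, with 4.21%.

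**Figure D1:**
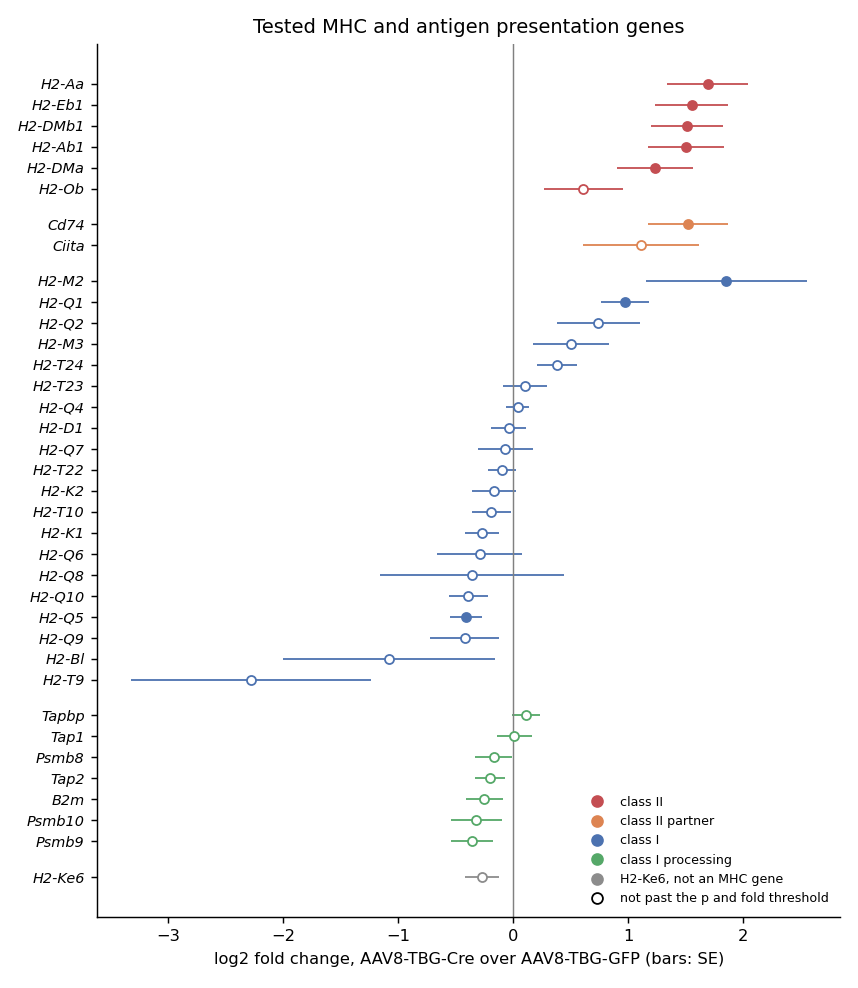
Log2 fold change of the 36 tested members in AAV8-TBG-Cre over AAV8-TBG-GFP livers (x axis), with the SE as bars, grouped by role and sorted within each group. Filled points passed the p and fold threshold. The 6 class II genes and both partners lie at 0.61 or above, and the 7 class I processing genes lie between -0.36 and 0.11.

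The classical class II genes encode the chains that display peptide to CD4 T cells. H2-Aa, the alpha chain of I-A, was measured at 31.6, 28.9 and 23.9 CPM in the 3 AAV8-TBG-GFP livers and at 52.4, 144 and 75.1 CPM in the 3 AAV8-TBG-Cre livers, each in the order of their replicate numbers. Every AAV8-TBG-Cre liver was above every AAV8-TBG-GFP liver, and AAV8-TBG-Cre replicate 2 stood highest. The mean rose from 28.1 ± 3.91 to 90.5 ± 47.7 CPM (SD, n = 3 mice each), a log2 fold change of 1.69 (SE 0.35, 3.22-fold, edgeR, adjusted p = 0.0619).

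H2-Ab1, the beta chain of I-A, was measured at 34.8, 31.0 and 26.9 CPM in AAV8-TBG-GFP livers and at 49.2, 135 and 78.7 CPM in AAV8-TBG-Cre livers. H2-Eb1, the beta chain of I-E, was measured at 24.2, 21.8 and 19.8 CPM and at 37.2, 98.2 and 57.8 CPM. For both genes the groups did not overlap and the livers fell in the same order as for H2-Aa, with AAV8-TBG-Cre replicate 2 first and AAV8-TBG-GFP replicate 3 last. The log2 fold change was 1.5 (SE 0.33, edgeR, adjusted p = 0.0711) for H2-Ab1 and 1.55 (SE 0.32, edgeR, adjusted p = 0.0619) for H2-Eb1. H2-Ea, which would encode the partner of H2-Eb1 and is defective in C57BL/6 mice, had no row in the gene table and was not analysed here.

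Cd74, the invariant chain on chromosome 18, was the most abundant class II partner. Cd74 was measured at 97.5, 98.3 and 73.3 CPM in AAV8-TBG-GFP livers and at 142, 405 and 223 CPM in AAV8-TBG-Cre livers. The groups again did not overlap, and the AAV8-TBG-Cre livers kept the order 2, 3, 1. The log2 fold change was 1.52 (SE 0.35, 2.86-fold, edgeR, adjusted p = 0.0789).

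**Figure D2:**
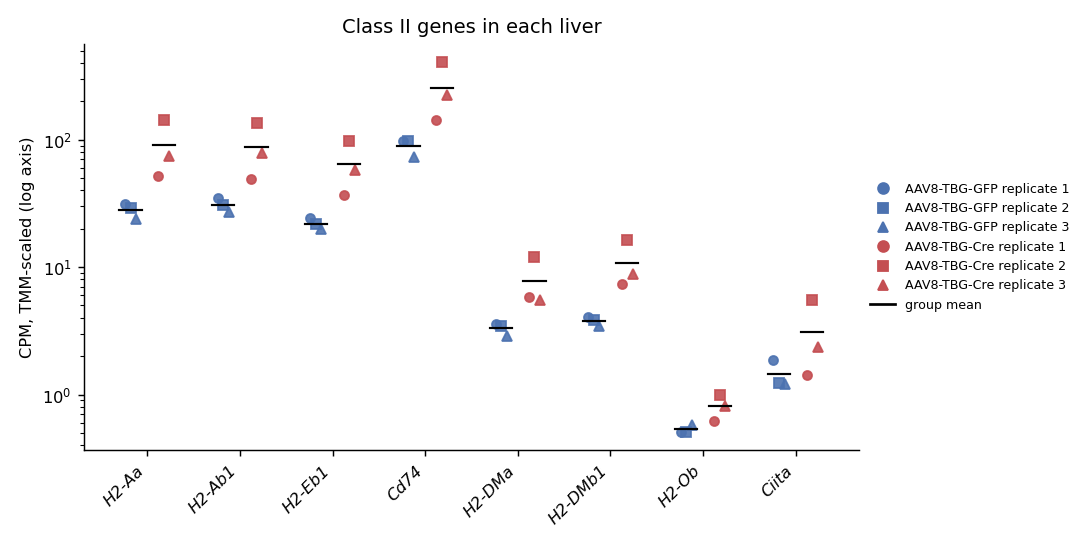
TMM-scaled CPM (log axis) of 6 class II genes, Cd74 and Ciita in each liver, with AAV8-TBG-GFP in blue, AAV8-TBG-Cre in red, symbols for the replicate and a line at the group mean. The AAV8-TBG-Cre livers lie above all AAV8-TBG-GFP livers for each gene except Ciita, and AAV8-TBG-Cre replicate 2 is the highest throughout.

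The chains of the peptide exchange factor H2-DM were called higher too. H2-DMa was measured at 3.61, 3.47 and 2.88 CPM in AAV8-TBG-GFP livers and at 5.82, 11.9 and 5.49 CPM in AAV8-TBG-Cre livers, a log2 fold change of 1.23 (SE 0.33, edgeR, adjusted p = 0.0981). H2-DMb1, its beta chain, was measured at 4.07, 3.88 and 3.46 CPM and at 7.35, 16.3 and 8.76 CPM, a log2 fold change of 1.51 (SE 0.31, edgeR, adjusted p = 0.0619). Both chains were higher in all 3 AAV8-TBG-Cre livers than in any AAV8-TBG-GFP liver. H2-DMb2, the second beta chain gene, stayed at 4.36 to 5.79 counts in AAV8-TBG-GFP livers and 5.56 to 18.0 counts in AAV8-TBG-Cre livers and was not tested. Its counts are not whole, which marks fragments shared with H2-DMb1.

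H2-DO is the inhibitor of H2-DM and is best known from B cells. Its beta chain gene H2-Ob had 10, 10 and 11 counts in AAV8-TBG-GFP livers and 13, 24 and 17 in AAV8-TBG-Cre livers. The groups did not overlap, but the log2 fold change of 0.61 did not pass (SE 0.34, edgeR, adjusted p = 0.361). Its alpha chain gene H2-Oa had 0, 1 and 5 counts in AAV8-TBG-GFP livers and 12, 15 and 6 in AAV8-TBG-Cre livers, which was too few for the filter. It was called higher with DESeq2 (2.25, adjusted p = 0.209) and in edgeR without the count filter (2.19, edgeR, adjusted p = 0.224). H2-Eb2 had 1 to 5 counts in every liver and was not tested either.

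Ciita, the transactivator on chromosome 16, is transcribed at a low level. It had 37, 24 and 23 counts in AAV8-TBG-GFP livers and 30, 134 and 49 in AAV8-TBG-Cre livers. One liver, AAV8-TBG-Cre replicate 1, fell inside the AAV8-TBG-GFP range. Its log2 fold change of 1.11 did not pass (SE 0.50, edgeR, adjusted p = 0.260). Without AAV8-TBG-Cre replicate 2 it was 0.39 (edgeR, adjusted p = 0.687). It was called higher in 3 of 14 alternatives, with DESeq2 (1.11, adjusted p = 0.216), without the count filter (1.1, edgeR, adjusted p = 0.260) and without AAV8-TBG-Cre replicate 1 (1.45, edgeR, adjusted p = 0.0795). The log2 ratio was -0.12 within the short-named libraries, a form of name described below, and 1.71 within the long-named ones.

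The proportions of the class II transcripts to each other were similar, with small shifts between the groups in some ratios. The FPKM ratio of H2-Aa to H2-Ab1 was 1.00, 1.03 and 0.98 in AAV8-TBG-GFP livers and 1.18, 1.18 and 1.05 in AAV8-TBG-Cre livers, without overlap. The ratio of Cd74 to H2-Ab1 lay between 2.52 and 2.96 in all 6 livers, with group means of 2.69 ± 0.24 and 2.69 ± 0.06 (SD, n = 3 each). The ratio of H2-DMa to H2-DMb1 was 0.64 to 0.69 in AAV8-TBG-GFP livers and 0.61, 0.57 and 0.48 in AAV8-TBG-Cre livers, lower in every AAV8-TBG-Cre liver. Cd74 has a short and a long transcript, the long one carrying an extra exon that encodes a protease-inhibiting domain. The long form took 31.3%, 21.0% and 28.3% of the Cd74 counts in AAV8-TBG-GFP livers and 29.1%, 29.2% and 23.1% in AAV8-TBG-Cre livers, and these ranges overlapped.

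The 9 class II genes summed to 99.3, 89.9 and 78.2 CPM in AAV8-TBG-GFP livers and to 153, 408 and 227 CPM in AAV8-TBG-Cre livers. The lowest AAV8-TBG-Cre liver lay above the highest AAV8-TBG-GFP liver, and the mean was 2.95 times as high. The median log2 fold change of the 6 tested class II genes was 1.5, against -0.01 over all genes tested. Leaving out AAV8-TBG-Cre replicate 2 lowered the log2 fold changes to 1.18 for H2-Aa, 1.05 for H2-Ab1, 1.11 for H2-Eb1, 0.76 for H2-DMa, 1.08 for H2-DMb1 and 1.02 for Cd74. All 6 genes still passed the p and fold threshold without it (edgeR, adjusted p = 0.0779 to 0.161). In whole liver RNA, more cells that carry class II and more class II RNA per cell cannot be told apart.

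The names of the libraries have 2 forms, short in 1 AAV8-TBG-Cre liver (replicate 1) and in replicates 1 and 2 of the controls, and long in the other libraries, and the labels do not say what the form stands for. The log2 ratio of H2-Aa was 0.79 within the short-named and 2.20 within the long-named libraries. For Cd74 these values were 0.54 and 2.10, for H2-DMb1 0.89 and 1.86, for H2-Ab1 0.58 and 1.99, for H2-Eb1 0.69 and 1.97 and for H2-DMa 0.72 and 1.60. The class II genes were higher in AAV8-TBG-Cre livers within both forms, each comparison resting on 3 libraries.

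Class I genes were far more abundant than class II genes in these livers. By FPKM, B2m led with 2450 ± 75.8 in AAV8-TBG-GFP livers, followed by the liver-secreted class I molecule H2-Q10 with 1256 ± 51.2, the classical class I genes H2-K1 with 666 ± 5.90 and H2-D1 with 369 ± 31.6, and H2-T23 with 128 ± 17.1 (SD, n = 3 each). Cd74 reached 66.6 ± 12.3 FPKM and H2-Aa 24.9 ± 4.14 FPKM in the same livers. H2-Q10, H2-K1 and H2-D1 together held 84.8% to 88.5% of the summed class I FPKM in every liver, and B2m stood at 0.93 to 0.96 times that sum. H2-L, a classical class I gene that C57BL/6 mice lack, had at most 1.88 counts in any liver.

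The classical class I genes did not pass the main test. H2-K1 was measured at 660, 670.3 and 669 FPKM in AAV8-TBG-GFP livers and at 637, 617 and 609 FPKM in AAV8-TBG-Cre livers. All 3 AAV8-TBG-Cre livers were lower on this scale, and the log2 fold change from the counts was -0.27 (SE 0.15, edgeR, adjusted p = 0.359). H2-K1 was called lower in 1 of 16 alternatives, with DESeq2 (-0.27, adjusted p = 0.157). H2-D1 was measured at 356, 347 and 405 FPKM and at 358, 449 and 407 FPKM, with overlapping groups and a log2 fold change of -0.04 (SE 0.15, edgeR, adjusted p = 0.899).

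H2-Q10 was measured at 1312, 1245 and 1212 FPKM in AAV8-TBG-GFP livers and at 1202, 1043 and 972 FPKM in AAV8-TBG-Cre livers. The groups did not overlap, and the log2 fold change of -0.39 did not pass (SE 0.17, edgeR, adjusted p = 0.246). H2-Q10 was called lower in 3 of 16 alternatives. These were DESeq2 (-0.40, adjusted p = 0.0595), RLE scaling (-0.39) and the fit without AAV8-TBG-Cre replicate 1 (-0.51). Its share of the class I FPKM was 48.3% ± 1.80 in AAV8-TBG-GFP and 43.8% ± 3.29 in AAV8-TBG-Cre livers (SD, n = 3 each). B2m was measured at 2534, 2387 and 2430.2 FPKM and at 2389, 2345 and 2182 FPKM, ranges that overlapped slightly. In CPM it stood at 2198, 2105 and 2232 against 1961, 1668 and 1849, without overlap, and the log2 fold change of -0.25 did not pass (SE 0.16, edgeR, adjusted p = 0.415).

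**Figure D3:**
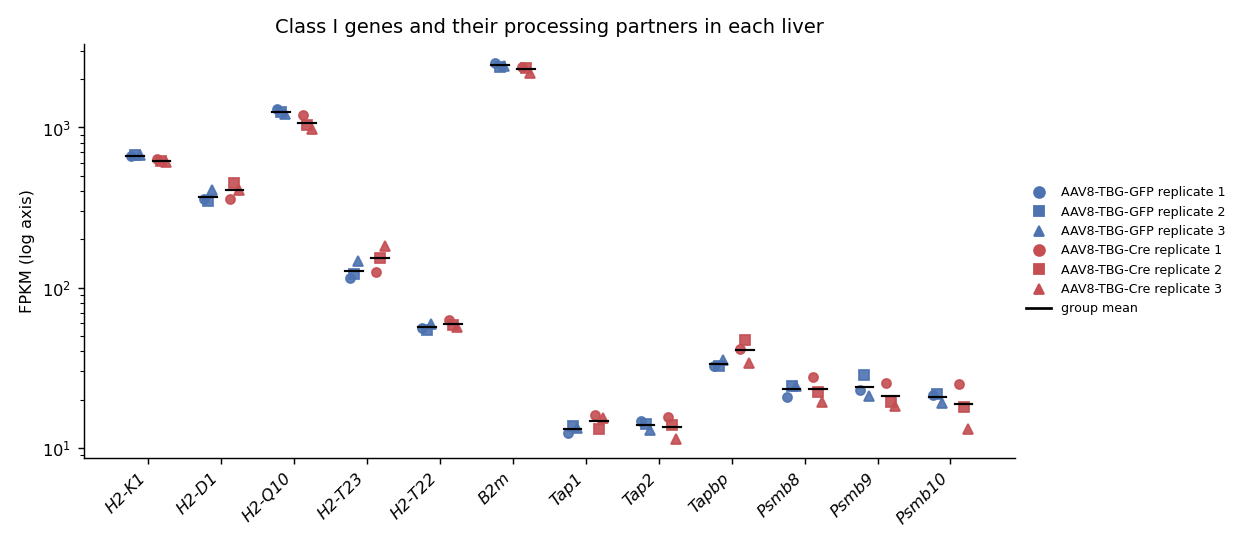
FPKM (log axis) of the most abundant class I genes, B2m and the class I processing genes in each liver, with AAV8-TBG-GFP in blue, AAV8-TBG-Cre in red and a line at the group mean. The group means lie close together for each gene. The log2 fold changes of these 12 genes from the TMM-scaled counts, not the plotted FPKM, lie between -0.39 and 0.11.

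The genes that cut, carry and load class I peptides showed no called change. Tap1 was measured at 12.4, 13.8 and 13.2 FPKM in AAV8-TBG-GFP livers and at 15.9, 13.1 and 15.3 FPKM in AAV8-TBG-Cre livers. Tap2 was measured at 14.6, 14.1 and 13.0 FPKM and at 15.6, 13.9 and 11.3 FPKM. Tapbp was measured at 32.6, 32.3 and 35.1 FPKM and at 41.3, 47.3 and 33.9 FPKM. The groups overlapped for all 3 genes, and the log2 fold changes were 0.01, -0.20 and 0.11 (SE 0.12 to 0.15, edgeR, adjusted p = 0.432 to 0.974).

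The immunoproteasome subunits did not pass either. Psmb8 was measured at 20.7, 24.5 and 24.3 FPKM in AAV8-TBG-GFP livers and at 27.8, 22.3 and 19.4 FPKM in AAV8-TBG-Cre livers. Psmb9 was measured at 22.9, 28.3 and 21.2 FPKM and at 25.6, 19.4 and 18.3 FPKM, and Psmb10 at 21.5, 21.7 and 19.1 FPKM and at 25.1, 17.9 and 13.2 FPKM. For each of the 3, AAV8-TBG-Cre replicate 1 was the highest AAV8-TBG-Cre liver and the groups overlapped. The log2 fold changes were -0.17, -0.36 and -0.32 (SE 0.16 to 0.22, edgeR, adjusted p = 0.314 to 0.614). Without AAV8-TBG-Cre replicate 1, 4 of the 7 processing genes were called lower, Psmb10 (-0.63, edgeR, adjusted p = 0.0316), Psmb9 (-0.55), Psmb8 (-0.35) and Tap2 (-0.34, edgeR, adjusted p = 0.0748 to 0.131 for these 3). The share of all genes called lower at the p and fold threshold in that fit is not given, so these 4 calls have no background beside them. At the stricter adjusted p-value under 0.05, only Psmb10 of the 4 passed. There 928 of 13678 genes passed in either direction, against 125 of 13431 with all livers. The log2 FPKM ratio of each subunit to the constitutive one it replaces differed between groups by 0.09 for Psmb8 over Psmb5, -0.20 for Psmb9 over Psmb6 and -0.18 for Psmb10 over Psmb7, with overlapping groups.

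Among the remaining class I genes, H2-Q1 and H2-M2 were called higher and H2-Q5 lower. H2-Q1, a nonclassical class I gene, was measured at 17.7, 13.7 and 21.1 CPM in AAV8-TBG-GFP livers and at 41.6, 34.8 and 26.7 CPM in AAV8-TBG-Cre livers. The groups did not overlap, and here AAV8-TBG-Cre replicate 1 was the highest, unlike for the class II genes. The log2 fold change was 0.97 (SE 0.21, edgeR, adjusted p = 0.0657), with 1.41 within the short-named and 0.54 within the long-named libraries.

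H2-M2 had 9.77, 2.41 and 9.48 counts in AAV8-TBG-GFP livers and 9.49, 52.4 and 27.5 in AAV8-TBG-Cre livers. The groups overlapped, and the log2 fold change of 1.85 had a wide error (SE 0.70, edgeR, adjusted p = 0.192). H2-M2 was called in 6 of 13 alternatives, and it was 1.29 and not called without AAV8-TBG-Cre replicate 2. H2-Q5 was measured at 43.8, 36.7 and 33.1 CPM and at 32.4, 26.8 and 26.2 CPM, without overlap, a log2 fold change of -0.41 (SE 0.14, edgeR, adjusted p = 0.158). It was called in 10 of 16 alternatives. The calls were lost with limma on FPKM under each of 3 settings (-0.23 to -0.24) and when any one of AAV8-TBG-GFP replicate 1, AAV8-TBG-Cre replicate 2 or AAV8-TBG-Cre replicate 3 was left out (-0.30, -0.37 and -0.36). The counts of these 3 genes are not whole in any library, so part of their fragments was shared with other genes.

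Sharing was evident in the Qa-2 genes H2-Q6, H2-Q7, H2-Q8 and H2-Q9, whose sequences are close to identical. H2-Q8 ranged from 15.5 to 120 counts within the AAV8-TBG-GFP group alone, and H2-Q9 ranged from 204 to 533 counts within the AAV8-TBG-Cre group. Their sum was 1097, 1196 and 1108 counts in AAV8-TBG-GFP livers and 1178, 1041 and 983 in AAV8-TBG-Cre livers, 0.942 times as high, and 0.838 times as high in CPM (55.8, 61.0 and 58.0 against 56.2, 42.8 and 47.3). H2-T9, listed with 18.6, 31.2 and 26.4 counts against 17.5, 0 and 0, belongs with its close relatives H2-T10 and H2-T22. The 3 together held 2142, 2112 and 2346 counts in AAV8-TBG-GFP livers and 2363, 2254 and 2222 in AAV8-TBG-Cre livers, 1.04 times as high, and 0.920 times as high in CPM. The values of single genes in both sets are therefore uncertain, and the sums overlapped between groups on both scales.

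The other tested class I genes lay between -1.08 and 0.74 on the log2 scale, and none was called. They include H2-T23, which presents leader peptides to NK cell receptors (0.10, SE 0.19), H2-M3, which presents formylated bacterial peptides (0.50, SE 0.33), H2-Q4 (0.04, SE 0.10) and H2-T24 (0.38, SE 0.17). Of the 9 class I genes too low to test, 5 (H2-M1, H2-M10.1, H2-M10.4, H2-M10.5 and H2-M9) had no fragment in any library. The other 4, H2-L, H2-M10.2, H2-M5 and H2-T3, had at most 4.30 counts. H2-Ke6, the enzyme gene in the region, had a log2 fold change of -0.27 (SE 0.15, edgeR, adjusted p = 0.356).

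Class I and class II are set side by side here. The median log2 fold change of the 20 tested class I genes was -0.14 and that of the 7 processing genes was -0.20, against -0.01 over all genes. With limma on log2(FPKM + 1), the class I median was 0.01 and the median of all genes 0.11, so class I lay below the median of all genes on both scales. Summed class I CPM was 4222, 4187 and 4464 in AAV8-TBG-GFP livers and 3856, 3280.0 and 3702 in AAV8-TBG-Cre livers, 0.842 times as high on average, and summed class I FPKM was 0.940 times as high, both without overlap. Over all 36 tested members, the groups did not overlap for 11 members higher in AAV8-TBG-Cre livers, where 14.0% of all genes did so, and for 7 lower, where 13.0% did.

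The log2 ratio of summed class II to summed class I CPM was -5.41, -5.54 and -5.83 in AAV8-TBG-GFP livers and -4.65, -3.01 and -4.03 in AAV8-TBG-Cre livers. The ratio was higher in every AAV8-TBG-Cre liver, with means of -5.60 ± 0.22 and -3.89 ± 0.83 (SD, n = 3 each) and a difference of 1.70. It differed by 0.82 within the short-named and 2.32 within the long-named libraries, and by 1.26 without AAV8-TBG-Cre replicate 2. For 3 pairs of single genes an exact two-sided permutation test over the 6 livers was run. The log2 ratio of H2-Aa to H2-K1 was higher by 1.84, that of Cd74 to B2m by 1.65 and that of H2-DMb1 to Psmb9 by 1.79, each without overlap. The exact permutation p was 0.1 for each pair, raw and adjusted over the 3, which is the smallest that 3 against 3 livers allow. In CPM, every AAV8-TBG-Cre liver was already higher for H2-Aa, Cd74 and H2-DMb1 and lower for H2-K1 and B2m. The pairs H2-Aa with H2-K1 and Cd74 with B2m therefore had to give this p. Their tests add nothing to the values of the single genes.

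The same contrast can be followed along the chromosome. On GRCm38.p6, 13 members lie from H2-Oa to H2-Eb2 at chr17:34092379-34341410. In this stretch Psmb9, Tap1, Psmb8 and Tap2 stand side by side between H2-DMb1 and H2-Ob. Their log2 fold changes were -0.36, 0.01, -0.17 and -0.20, between 1.51 for H2-DMb1 on one side and 0.61 for H2-Ob, 1.5 for H2-Ab1, 1.69 for H2-Aa and 1.55 for H2-Eb1 on the other. H2-DMb1, with the X and Y letters shown above, ends at position 34160229, and Psmb9 begins at 34182030.

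**Figure D4:**
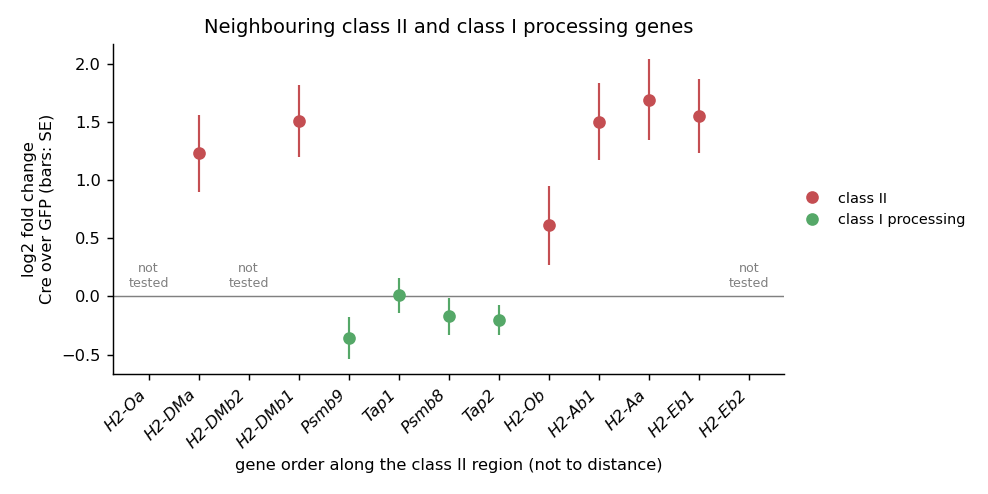
Log2 fold change with SE (y axis) of the members from H2-Oa to H2-Eb2, in their order along chromosome 17 and not to distance (x axis). Class II genes (red) lie at 0.61 to 1.69 on both sides of the 4 class I processing genes (green), which lie at -0.36 to 0.01, and 3 class II genes were not tested.

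Of 45 tested genes of the wider pathway, listed by role, 12 were called higher and 3 lower, and none passed an adjusted p-value under 0.05. The endosomal proteins that prepare class II peptides were called higher in 5 of 8 cases and lower in 1. Ctss, cathepsin S, which makes the last cut in the invariant chain, was measured at 27.3, 25.9 and 23.4 CPM in AAV8-TBG-GFP livers and at 42.6, 114 and 62.0 CPM in AAV8-TBG-Cre livers. Its livers fell in the same order as for H2-Aa, and its log2 fold change was 1.51 (SE 0.33, edgeR, adjusted p = 0.0677). March1, the ligase that removes class II from the surface of antigen-presenting cells, changed by 0.92, the protease Lgmn by 0.71, the thiol reductase Ifi30 by 0.60 and Ctsl by 0.57. March8, a related ligase, was lower (-0.29), and Ctsb (0.15) and Ctsd (0.24) did not pass. Without AAV8-TBG-Cre replicate 2, Ctss (1.03), Ctsl (0.64), Lgmn (0.47) and Ifi30 (0.40) were still called. March1 (0.72) and March8 (-0.22) were then not called.

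The factors that act on class II promoters showed smaller differences. Of 7 genes, Nfya (0.43), a subunit of NF-Y, and Creb1 (0.31) were called higher. Neither was called without AAV8-TBG-Cre replicate 2 (0.39 and 0.27). The RFX genes Rfx5 (-0.05), Rfxap (0.14) and Rfxank (0.17) and the NF-Y genes Nfyb (-0.06) and Nfyc (-0.06) did not pass. Of the 4 tested costimulatory genes, Icosl (1.52), Cd40 (1.47) and Cd86 (0.85) were called higher, and Cd274 (0.45) did not pass.

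On the class I side, none of 12 loading and trimming genes was called higher, and Tapbpl (-0.35), the tapasin-related loading factor, and Psme3 (-0.27), a proteasome activator, were called lower. Nlrc5, the class I transactivator, was level, with 21.1, 23.9 and 24.9 CPM in AAV8-TBG-GFP livers and 23.7, 23 and 24.0 CPM in AAV8-TBG-Cre livers (log2 fold change 0.02). Of 8 class I regulators, Ifngr1 (0.74), a chain of the interferon gamma receptor, and Irf1 (0.36) were called higher and none lower. Without AAV8-TBG-Cre replicate 2, Tapbpl (-0.35) and Ifngr1 (0.59) were still called, and Psme3 (-0.22) and Irf1 (0.39) were not. None of 6 MHC-like presenting molecules, among them Cd1d1 (-0.36) and Fcgrt (-0.16), was called. Of 11 interferon-response genes, 1 was called higher (Oas1a, 0.72) and none lower, with a median log2 fold change of -0.12, and Ifng had no count in 5 of the 6 libraries.

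Marker lists of macrophages, dendritic cells and B cells, which carry class II, were also examined. With all 6 livers, 12.0% of all genes tested were called higher and 8.41% lower. These shares are the background for the marker lists here and below. Of 15 markers of macrophages and Kupffer cells, 12 were called higher, and their summed level was 343 to 389 CPM in AAV8-TBG-GFP livers and 559 to 890 CPM in AAV8-TBG-Cre livers. Among them Lyz2 (1.52), Cd68 (1.2), Gpnmb (2.28) and Trem2 (1.89) were called higher, as were Cd5l (0.71), Vsig4 (0.36) and the complement genes C1qa (0.75), C1qb (1.0) and C1qc (0.88), which Kupffer cells carry. The other Kupffer cell genes Clec4f (0.29), Timd4 (0.29) and Marco (-0.75) did not pass. Without AAV8-TBG-Cre replicate 2, 10 of the 15 were called, Lyz2 (1.01) among them, and Gpnmb (1.26) was not. Per 100 CPM of this list, the class II sum was 25.5, 24.7 and 22.8 CPM in AAV8-TBG-GFP livers and 27.5, 45.9 and 40.7 CPM in AAV8-TBG-Cre livers. The class II sum was thus higher relative to the sum of these markers in every AAV8-TBG-Cre liver, by little in replicate 1. Single markers of the list changed by -0.75 (Marco) to 2.28 (Gpnmb), so the ratio depends on the markers summed. Class II RNA per macrophage was not tested.

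Of 9 tested dendritic cell markers, 4 were called higher, Itgax (2.16), Ccr7 (1.63), Cd209a (1.53) and Siglech (1.24). Of these, Cd209a stood at only 0.16 to 0.31 CPM in AAV8-TBG-GFP and 0.52 to 0.99 CPM in AAV8-TBG-Cre livers. Ccr7 (0.26 to 0.42 and 0.62 to 1.56 CPM) and Siglech (0.36 to 0.47 and 0.52 to 1.56 CPM) were also low. Flt3 (1.25), Xcr1 (0.29), Clec9a (0.11), Zbtb46 (0.10) and Cst3 (0.06) did not pass. Without AAV8-TBG-Cre replicate 2, Itgax was 1.42 and still called, and Siglech (0.69) was not. The summed level of that list was 134 to 146 CPM and 138 to 183 CPM, most of it from Cst3. Of the 5 B cell markers in the table, Ms4a1, Cd79b and Pax5 were too low to test. Cd79a (1.18) was called higher, and Cd22 (0.66) did not pass. Without AAV8-TBG-Cre replicate 2, Cd79a was 1.19 and still called, and Cd22 was 0.11. The B cell sum was 3.26 to 3.61 CPM in AAV8-TBG-GFP livers and 4.14 to 9.04 CPM in AAV8-TBG-Cre livers. Cd22 made up 1.99 to 2.49 CPM and 1.96 to 5.63 CPM of it.

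Markers of some other cell types differed as well. All 8 cholangiocyte markers were called higher, with sums of 72.2 to 128 CPM against 306 to 574 CPM, as were 5 of 8 markers of stellate cells and fibroblasts (127 to 196 CPM against 339 to 754 CPM). Neutrophil markers gave 3 higher and 1 lower of 5, with sums of 14.7 to 16.4 CPM against 18.9 to 21.9 CPM. Of 4 tested T and NK cell markers, 1 was higher and 1 lower, with sums of 4.08 to 6.07 CPM against 4.58 to 8.21 CPM. Endothelial markers gave 1 lower of 8 (158 to 253 CPM against 166 to 195 CPM), and hepatocyte markers 2 higher and 1 lower of 8 (92700 to 110000 CPM against 75700 to 97200 CPM), and no marker in the table was at 0 in all 6 livers. AAV8-TBG-Cre replicate 2 had the highest class II sum and the highest sums of macrophage, dendritic cell, B cell, T and NK cell, neutrophil, cholangiocyte and stellate cell markers. The same liver had the lowest sums of hepatocyte markers, interferon-response genes and class I genes. High sums in this liver were thus not particular to cells that carry class II. The part of these cell types in the class II result was not tested.

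**Figure D5:**
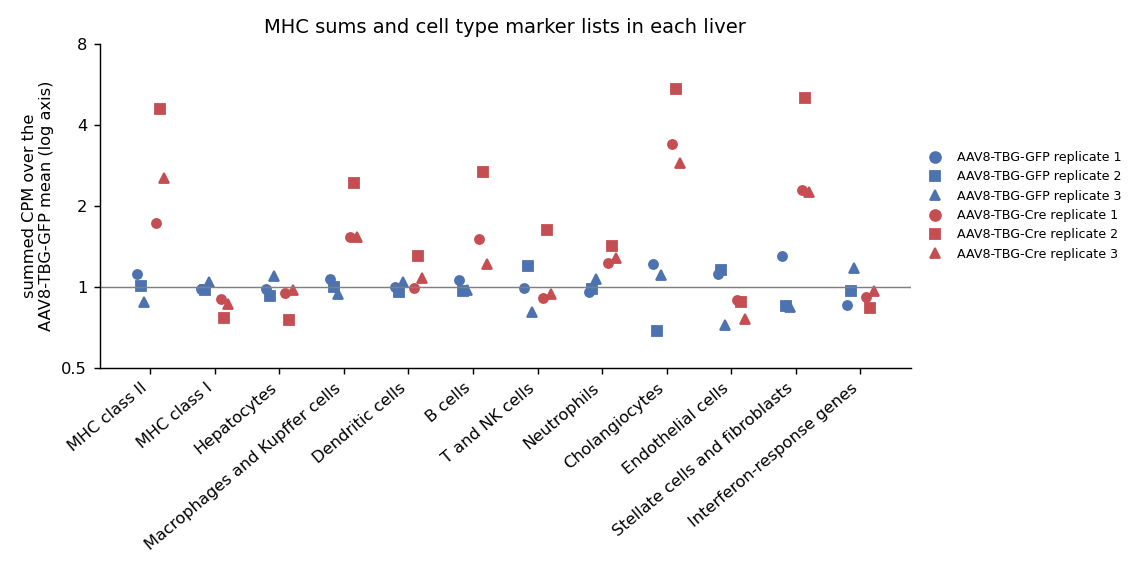
Summed CPM of the class II genes, the class I genes and each marker list in every liver, divided by the mean of the AAV8-TBG-GFP livers (y axis, log). The class II, macrophage, cholangiocyte and stellate cell sums of all AAV8-TBG-Cre livers (red) lie above those of the AAV8-TBG-GFP livers (blue), and the class I sums lie below them.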

How the data were processed

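Liver RNA was sequenced on the DNBseq platform. Per the labels, the submitters' processing notes name HISAT2, Bowtie2 and RSEM and the build mm10, and STAR, HTSeq and DESeq2 are listed in the methods of the study. For each liver the authors deposited expected counts per transcript (estimated counts, not normalized, with shared fragments divided between transcripts) and FPKM values per transcript and per gene. Expected counts were summed per NCBI gene ID and rounded. CPM was computed with TMM scaling.

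The main test was the edgeR 4.0.16 quasi-likelihood test (R 4.3.3, filterByExpr, vector as the only factor) over all 13431 genes that passed the filter, with Benjamini-Hochberg adjustment. SE values were derived from the F statistic. Simulated counts with known changes served to test these steps. Other settings tried were DESeq2 1.42.0, scaling by RLE or the upper quartile, other count filters, a replicate block, the library-name form as a covariate, limma 3.58.1 on log2(FPKM + 1) or log2(FPKM + 0.1), each library left out in turn, and a stricter fold threshold (1.5). Values within each form of library name were added after the data were seen. With 3 mice per group, p-values reflect only the spread between these 6 livers.

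Members were taken by symbol, and this gene family, the gene lists and the tests were chosen with earlier results of these data known. Values per library are given for each member past the p and fold threshold, the classical genes, B2m, Cd74, Ciita, the TAP, tapasin, proteasome, DM and DO genes. Other members are given by range and count. Ighm and Trac, on the marker lists, were not analysed here. A further 2 listed genes are not reported here and were left out of their lists. Promoter windows are from RefSeq on GRCm38.p6, and no sequence of Cd74, Ciita or H2-Ab1 is shown.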

Additional observations from a re-analysis of the deposited data

How the results depend on the processing

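The number of members called higher, 8, stayed between 7 and 10 under every alternative, and 6 members (H2-Aa, H2-Ab1, H2-Eb1, H2-DMa, H2-DMb1 and Cd74) and H2-Q1 were called under all 16. The number called lower, 1, was 3 with DESeq2, 2 with RLE scaling, 2 without a filter on low counts, 0 at a fold of 1.5, and 0 to 9 with a library left out, 9 without AAV8-TBG-Cre replicate 1. Shares of all genes past the p and fold threshold are not given for the alternatives, so these counts have no background beside them. The number past an adjusted p-value of 0.05, 0 in edgeR, was 7 with DESeq2, 6 without a filter on low counts, and 0 to 7 with a library left out, 7 without AAV8-TBG-Cre replicate 1 (H2-Aa, H2-Ab1, H2-Eb1, H2-DMb1 and Cd74 higher, H2-T9 and Psmb10 lower). Over all genes, 125 passed in the main fit, 1157 with DESeq2, 372 of 18419 without the filter and 928 of 13678 without AAV8-TBG-Cre replicate 1. Over all alternatives the adjusted p of H2-Aa ranged from 9.12e-05 with DESeq2 to 0.208 without AAV8-TBG-GFP replicate 2.

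The class I median of -0.14 was 0.01 with limma on log2(FPKM + 1), 0.01 with log2(FPKM + 0.1) and 0.02 without the FPKM filter, each below the median of all genes on that scale (0.11, 0.14 and 0.07), and -0.13 to -0.03 with a library left out. The difference in the log2 ratio of class II to class I was 0.82 within short-named libraries. The cause of the last was not tested.

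Replicate numbers did not pair the livers (correlations of deviations 0.07, -0.29 and 0.24). With the replicate block, 7 members were called higher, 1 was called lower and 0 passed the adjusted threshold. H2-M2 was then not called. The 9 named genes that were called in edgeR had 141 values under these alternatives, of which 128 kept the call and 13 lost it (7 for H2-M2 and 6 for H2-Q5). The 5 named genes that were not called had 76 values, of which 7 passed, and 0 of all values changed direction.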
